A study of Homo sapiens with 8 samples.

Results

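The genes described here are the 2 insulin-like growth factor (IGF) ligands IGF1 and IGF2, the noncoding RNA H19 that lies beside IGF2, the receptors IGF1R and IGF2R, and 5 IGF binding proteins, IGFBP2, IGFBP3, IGFBP4, IGFBP5 and IGFBP7. They were chosen by name, with earlier results of these data known. These 10 genes are 10 of the 60668 gene entries in the expression tables. RNA was sequenced from D283-OMO cells, a culture made from D283 Med, an established line of medulloblastoma, by lentiviral transduction and hygromycin selection. The transgene encodes OMOMYC, a small dominant-negative form of MYC that pairs with MYC and its partner MAX, and doxycycline (DOX) switches it on. The OMO group was 4 libraries of these cells left untreated, and the OMO+DOX group was 4 libraries of the same cells after 72 h of DOX, so that both groups carried the transgene and differed in DOX. The comparison asks which RNAs changed when MYC was inhibited. DOX-treated cells without the transgene were not analysed here, so DOX and OMOMYC cannot be told apart. These are bulk samples, in which fewer cells expressing a gene and less RNA per cell cannot be told apart either.

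IGF1 and IGF2 are secreted peptides that signal growth and survival through IGF1R, a receptor tyrosine kinase. IGF2R, also known as the cation-independent mannose 6-phosphate receptor, does not signal in this way: it takes up IGF2 for degradation in lysosomes and sorts lysosomal enzymes. The binding proteins hold IGFs outside the cell, lengthen their life and limit or deliver them to the receptor, and IGF2 and H19 form an imprinted pair in which the copy inherited from the father makes IGF2 and that from the mother makes H19.

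The libraries held between 46592947 and 54020506 counts in OMO and between 38390696 and 49249167 in OMO+DOX, and levels are given as CPM, counts scaled to the size of the library and by TMM, a correction for composition. The untreated replicate 3 stood apart from the rest of its group, with a mean correlation to the other untreated libraries of 0.9903 against 0.9940 to 0.9946. As a check of the treatment, the MYC targets CAD and NCL fell by 0.48 and 0.44 on the log2 scale (edgeR's quasi-likelihood test, Benjamini-Hochberg adjusted p = 1.33e-06 and 1.23e-06). Over all 15222 genes tested, 38.1% were lower and 38.5% higher at an adjusted p below 0.05. The falls of CAD and NCL thus do not by themselves show that MYC was inhibited. MYC itself was 939 ± 75.6 CPM in OMO and 1123 ± 56.8 in OMO+DOX, a log2FC of 0.26 (adjusted p = 0.00237, edgeR's quasi-likelihood test) with overlapping groups, and reads from the transgene cannot be told from those of MYC. The list of medulloblastoma and photoreceptor-like markers, which includes CRX and NRL, summed to between 2211 and 2424 CPM in OMO. With DOX the sum was between 721 and 740 CPM. The sum does not show the level of each marker. All 7 were tested, and 6 were lower and 1 higher at an adjusted p below 0.05, against the 38.1% and 38.5% of all genes. At an adjusted p below 0.001 with an absolute log2FC above 2, 4 of the 7 were lower, against 2.75% of all genes tested. The median log2FC of the list was -2.57.

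MYC with MAX binds the E-box CACGTG, and the 250 bases before the start of transcription were searched for these letters, which read the same on both strands. Of the 10 genes, 8 had a promoter in the RefSeq table (GRCh38.p14), while IGF2 and IGFBP7 had none there and were not searched. These 8 genes had 11 promoters, and 1 of the 8, IGF2R, held the motif, in 3 copies. The motif stood in 6.34% of the 35116 promoters of the table, and 3 or more copies stood in 0.0797%. Both shares count promoters and not genes. The promoter of IGF2R is shown for these copies, and that of IGFBP5 because this gene had the largest fall of the 10 and its window held none. Both run 5′ to 3′ on the strand of the gene, IGF2R at chr6:159968832-159969081 on the plus strand and IGFBP5 at chr2:216695550-216695799 on the minus strand, and capitals mark the E-box.
IGF2R: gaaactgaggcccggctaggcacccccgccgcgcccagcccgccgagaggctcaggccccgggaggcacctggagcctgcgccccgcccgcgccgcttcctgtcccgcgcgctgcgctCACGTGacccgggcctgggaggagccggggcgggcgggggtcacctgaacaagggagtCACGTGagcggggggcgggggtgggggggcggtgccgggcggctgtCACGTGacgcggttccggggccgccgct
IGFBP5: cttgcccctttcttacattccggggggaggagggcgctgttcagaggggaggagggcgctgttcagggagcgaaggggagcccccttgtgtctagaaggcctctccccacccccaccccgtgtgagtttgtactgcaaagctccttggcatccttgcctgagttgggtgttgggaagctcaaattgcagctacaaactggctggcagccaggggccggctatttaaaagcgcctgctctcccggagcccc
The first bases of the 3 copies in IGF2R lay 132, 74 and 28 bases before the start. A match describes the letters and is not a measured binding site, and no binding data were used.

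With DOX, the ligands moved in opposite directions, the receptor IGF2R and the binding proteins IGFBP2, IGFBP3 and IGFBP7 were higher, and IGFBP4 and IGFBP5 were lower. IGFBP5, the highest of the 10 per length in untreated cells, fell 18.3-fold. Of the 10 genes, 8 passed the filter, which asked for a level above 1 CPM, before TMM, in 4 libraries or more, and IGFBP3 and H19 did not. Among those 8, 4 were higher and 4 lower at an adjusted p below 0.05, in a fit in which 38.5% of the 15222 genes tested were higher and 38.1% lower, 76.6% in all. By the stricter call of differential expression, an adjusted p below 0.001 with an absolute log2 fold change (log2FC) above 2, IGF2 and IGFBP7 were higher and IGF1 and IGFBP5 lower, against 4.38% and 2.75% of all genes tested, 7.12% together. IGF1, IGF2 and IGFBP7 passed the filter only through the group in which they were high, so a difference was built into their being tested. Their p values carry that limit, and these counts are not evidence about the genes as a set. The libraries of the groups did not overlap for 8 of the 10 genes, the exceptions being IGF1R and H19, and for 71.7% of all genes tested.

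**Figure D1:**
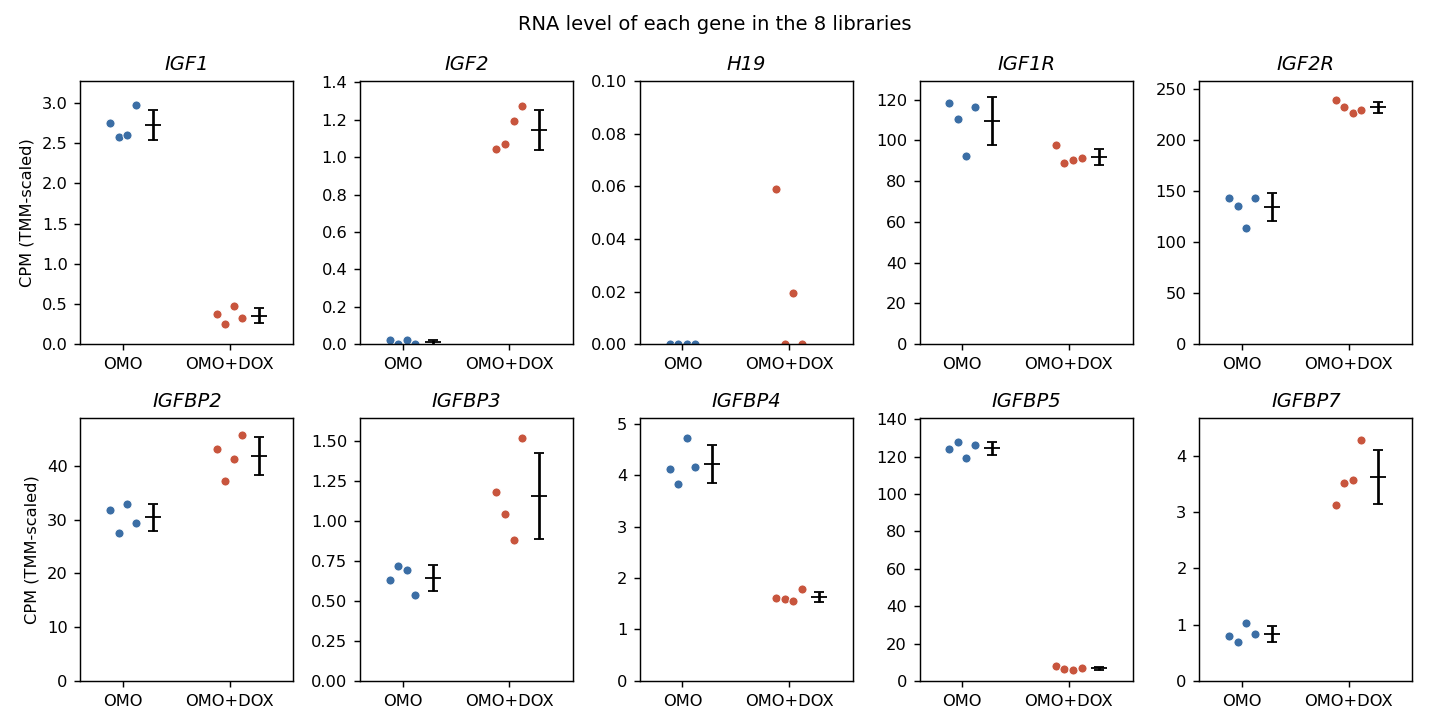
RNA level of each of the 10 genes in the 4 OMO and 4 OMO+DOX libraries, in TMM-scaled CPM on a linear axis from 0 with its own range in each panel. Points are libraries and the bar beside them is the mean ± SD (n = 4; left out for H19, which had at most 3 counts); IGFBP5 is the tallest gap downwards, from 124 to 6.79 CPM, while the IGF1R groups overlap.

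IGF1 (ENSG00000017427.16), the ligand made largely under the control of growth hormone, lies at chr12:102395874-102481744 on the minus strand. Its level was 2.75, 2.57, 2.60 and 2.98 CPM in the untreated libraries and 0.375, 0.249, 0.469 and 0.330 CPM with DOX. Each treated library was far below each untreated one. The means of 2.73 ± 0.186 and 0.356 ± 0.0917 CPM (SD, n = 4 here and for each mean below) differed by a log2FC of -2.91 (SE 0.16), a 7.49-fold fall (edgeR's quasi-likelihood test, adjusted p = 1.22e-08). The treated values rested on 10 to 24 counts a library against 128 to 135 in untreated cells. IGF1 was tested only through its untreated libraries, and its p value carries that limit. The estimated counts of IGF1 were not whole numbers in any library, which means that some of its reads also matched elsewhere. The noncoding RNA HELLPAR overlaps it by 6723 bp on the opposite strand and was 7.33 CPM in OMO and 2.96 in OMO+DOX, and since the strand setting of the counting was not given in the sources used here, reads of this pair may be mixed.

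IGF2 (ENSG00000167244.21), the growth factor of fetal tissue that many childhood tumours express, lies at chr11:2129112-2149603 on the minus strand. The untreated libraries held 1, 0, 1 and 0 counts and the treated ones 53, 43, 61 and 58. IGF2 was thus at or near 0 in untreated cells and present in every treated library. The treated level was 1.04, 1.07, 1.19 and 1.28 CPM, with a mean of 1.15 ± 0.108. IGF2 was tested only through its treated libraries, and its p value carries that limit. Against a floor of 3 counts per library, its level was at least 17.1-fold higher with DOX (adjusted p = 1.24e-08 in edgeR's quasi-likelihood test). This was still a low level, above that of 1.66% of the 15116 tested genes with a known exon length when compared per length. The read-through transcript INS-IGF2 was at 0 in every library and the antisense IGF2-AS had at most 1 count. A second entry of the same symbol was also at 0 throughout, and the estimated counts of IGF2 were not whole in 3 libraries.

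H19 (ENSG00000130600.19), the noncoding RNA on the other side of the imprinted domain, lies at chr11:1995176-2001470 on the minus strand, 127641 bp from IGF2. It had 0 counts in each untreated library and 3, 0, 1 and 0 counts in the treated ones. All 8 libraries were at or under the floor, so no fold is given, and a difference was not detectable at this depth (exact permutation test, two-sided, p = 0.429). The treated libraries in which IGF2 was counted therefore held almost no H19.

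IGF1R (ENSG00000140443.15), the signalling receptor for both ligands, lies at chr15:98648539-98964530 on the plus strand. Its level was 119, 111, 92.4 and 116 CPM in OMO and 97.8, 89.0, 90.2 and 91.3 CPM in OMO+DOX. Untreated replicate 3 lay inside the treated range and the other 3 untreated libraries lay above it. The means were 109 ± 11.9 and 92.1 ± 3.92 CPM, a log2FC of -0.25 (SE 0.07, adjusted p = 0.00881 by edgeR's quasi-likelihood test), and the exact permutation test gave p = 0.0571. Scaling by library size only, without TMM, moved the log2FC to -0.12 (adjusted p = 0.179), which ends the call, whereas leaving out untreated replicate 3 gave -0.33 (adjusted p = 1.05e-05).

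IGF2R (ENSG00000197081.14), the clearance receptor for IGF2, lies at chr6:159969099-160113507 on the plus strand. It measured 143, 135, 114 and 144 CPM in OMO and 240, 233, 227 and 229 CPM in OMO+DOX. The groups were well apart, and the lowest untreated value was again that of replicate 3. The rise from 134 ± 13.8 to 232 ± 5.51 CPM was 1.73-fold, a log2FC of 0.79 (SE 0.07, adjusted p = 6.96e-07, edgeR's quasi-likelihood test). The antisense RNA AIRN, which in mouse silences the gene on the paternal copy, had at most 1 count in OMO and 3 in OMO+DOX.

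Per kilobase of exon, IGF1R and IGF2R were at nearly the same level in untreated cells, and the insulin receptor INSR, which forms hybrids with IGF1R and also binds IGF2, was close to both. INSR was chosen for this comparison after its values were seen. It fell from 90.4 to 34.2 CPM, a log2FC of -1.40 (SE 0.06, adjusted p = 1.42e-09, edgeR's quasi-likelihood test). The ratio of IGF2R to IGF1R per length was 0.958 ± 0.0102 in OMO and 1.97 ± 0.0545 in OMO+DOX. That of IGF1R to INSR was 0.907 ± 0.0378 and 2.02 ± 0.0598. Neither ratio overlapped between groups, and each had p = 0.0286 by a two-sided exact permutation test, the smallest that 4 against 4 can give (adjusted p = 0.0333 over the 14 single values given this test). For the IGF1R to INSR ratio, the gap and the p value follow from that choice of INSR and are descriptive only. The members were also chosen with earlier results of these data known, so the p value of the IGF2R to IGF1R ratio is descriptive too. Untreated replicate 3 was low for all 3 receptors. Among the untreated libraries it had the highest IGF2R to IGF1R ratio, 0.967, and the lowest IGF1R to INSR ratio, 0.869.

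**Figure D2:**
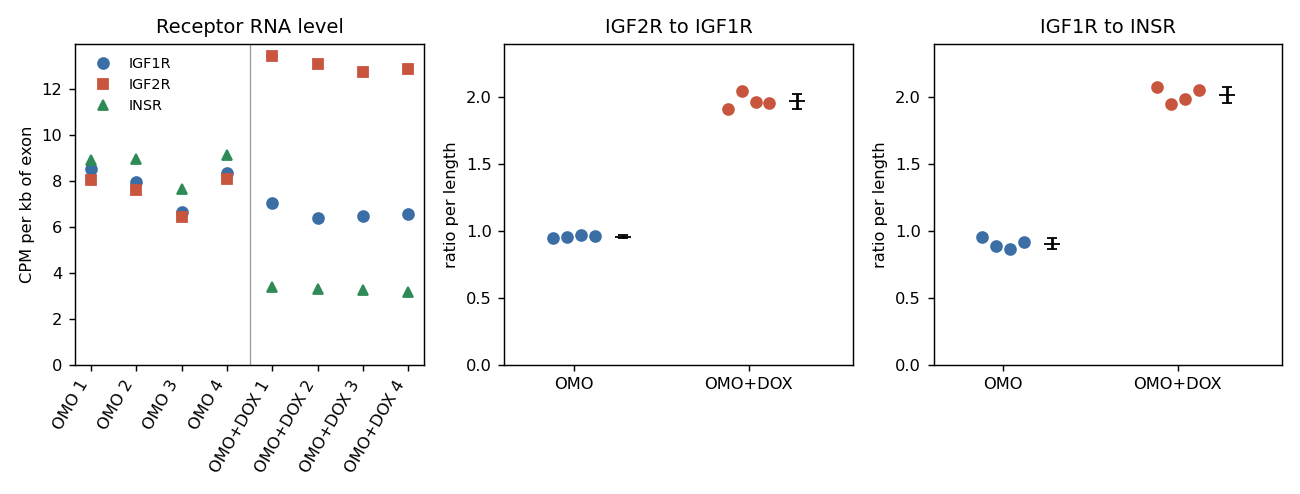
Levels of IGF1R, IGF2R and INSR in each library in CPM per kb of exon (left), and the ratios of IGF2R to IGF1R (middle) and of IGF1R to INSR (right) per library, with mean ± SD beside the points (n = 4). The 3 receptors lie close together in OMO and separate with DOX, where both ratios stand near 2 (1.97 and 2.02).

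IGFBP5 (ENSG00000115461.5), a binding protein that attaches to extracellular matrix, lies at chr2:216672105-216695525 on the minus strand. The untreated libraries gave 124, 128, 119 and 126 CPM and the treated ones 7.97, 6.43, 6.06 and 6.69 CPM. The spread within each group was small beside the gap between them. Its mean fell from 124 ± 3.63 to 6.79 ± 0.827 CPM, which is 18.3-fold, a log2FC of -4.19 (SE 0.08, adjusted p = 1.32e-12, edgeR's quasi-likelihood test). Per length, it ranked above 86.1% of 15116 tested genes in untreated cells and above 17.5% with DOX.

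IGFBP2 (ENSG00000115457.10), a binding protein of fetal and brain tissue that favours IGF2, lies at chr2:216632828-216664436 on the plus strand, with its 3′ end facing that of IGFBP5 across 7668 bp. It measured 31.8, 27.4, 33.0 and 29.4 CPM in OMO and 43.0, 37.2, 41.2 and 45.7 CPM in OMO+DOX. All treated values lay above all untreated ones, though the gap was narrower than for IGFBP5. The means of 30.4 ± 2.49 and 41.8 ± 3.55 CPM gave a 1.38-fold rise, a log2FC of 0.46 (SE 0.07, adjusted p = 0.000131, edgeR's quasi-likelihood test). These neighbours thus moved in opposite directions.

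IGFBP4 (ENSG00000141753.7), which holds IGFs until the protease PAPPA cleaves it, lies at chr17:40443461-40457731 on the plus strand. Its level was 4.12, 3.83, 4.72 and 4.17 CPM in untreated cells and 1.62, 1.59, 1.56 and 1.78 CPM with DOX. The treated libraries were close to one another and all below the untreated. The means of 4.21 ± 0.369 and 1.64 ± 0.0981 CPM differed 2.57-fold, a log2FC of -1.36 (SE 0.10, adjusted p = 1.97e-07 by edgeR's quasi-likelihood test). PAPPA itself did not pass the filter and averaged 0.251 CPM in OMO and 0.219 in OMO+DOX.

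IGFBP7 (ENSG00000163453.11), a relative with weak affinity for IGFs that is abundant in vessel walls, lies at chr4:57030773-57110385 on the minus strand. It gave 0.796, 0.697, 1.04 and 0.829 CPM in OMO and 3.12, 3.51, 3.56 and 4.27 CPM in OMO+DOX. Even the lowest treated library was well above the highest untreated one. The rise from 0.840 ± 0.143 to 3.61 ± 0.481 CPM was 4.30-fold, a log2FC of 2.10 (SE 0.15, adjusted p = 1.08e-07, edgeR's quasi-likelihood test). This is only just beyond the limit of 2, and with untreated replicate 2 left out the log2FC was 1.997, or 2.01 with the set of genes tested kept. IGFBP7 was tested only through its treated libraries, and its p value carries that limit. Its estimated counts were not whole in any library, and it overlaps POLR2B, at 150 and 164 CPM, by 396 bp on the opposite strand. The endothelial markers summed to between 3.58 and 4.49 CPM in OMO and between 5.56 and 6.37 in OMO+DOX, with CDH5 and KDR rising, VWF falling and PECAM1 at no more than 2 counts, and their part in the level of IGFBP7 was not tested.

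IGFBP3 (ENSG00000146674.15), the main carrier of IGFs in blood, lies at chr7:45912245-45921874 on the minus strand. Its level was 0.633, 0.716, 0.691 and 0.538 CPM in OMO and 1.18, 1.05, 0.880 and 1.52 CPM in OMO+DOX. The groups did not overlap, but the treated libraries were spread widely and too few exceeded 1 CPM for the gene to be tested with the rest. The log2 ratio of the means, 0.644 ± 0.0792 and 1.16 ± 0.271 CPM, was 0.84 (two-sided exact permutation test, p = 0.0286). With no filter on low counts, edgeR's quasi-likelihood test gave a log2FC of 0.81 (adjusted p = 0.00170).

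**Figure D3:**
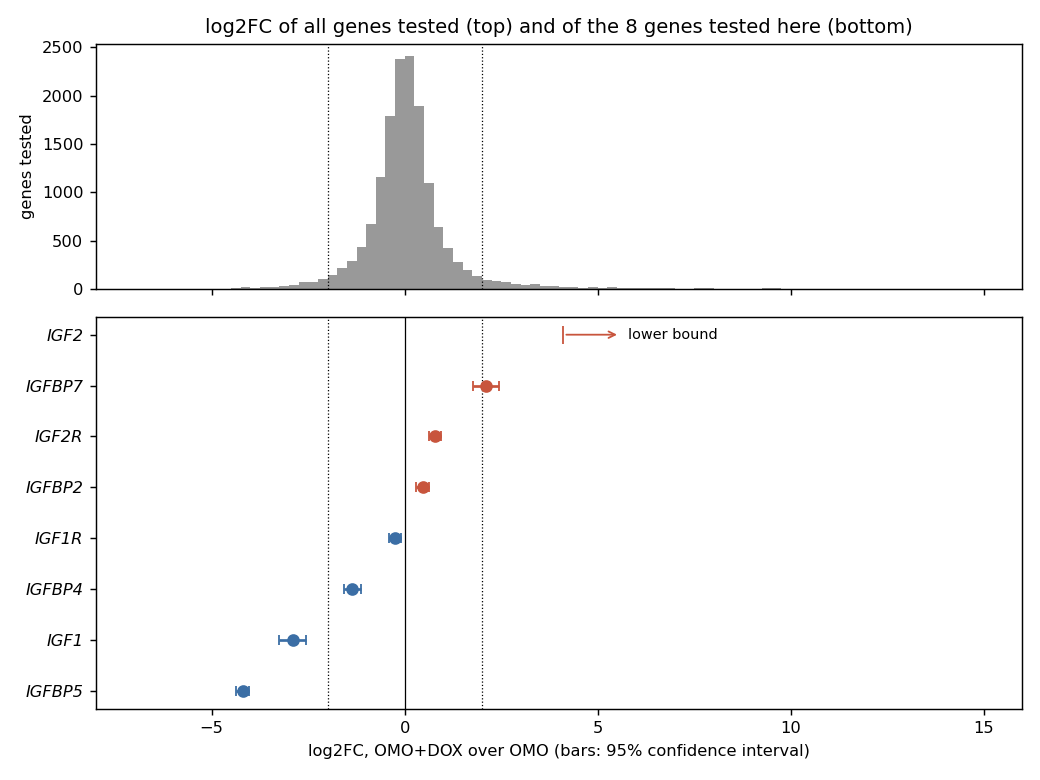
Distribution of the log2FC over all 15222 genes tested (top, number of genes per bin) and the log2FC of the 8 tested IGF genes with 95% confidence intervals (bottom), OMO+DOX over OMO. Dotted lines mark the limits of -2 and 2 used for differential expression; IGFBP5 lies at -4.19, IGF1 at -2.91 and IGFBP7 at 2.10, and IGF2 is drawn as a lower bound of 17.1-fold.

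Ordered by level per length, untreated cells expressed IGFBP5 most, at 19.3 ± 0.564 CPM per kb, then IGF1R at 7.85 ± 0.851, IGF2R at 7.52 ± 0.772, IGFBP2 at 6.38 ± 0.523 and IGFBP4 at 1.91 ± 0.168. IGF1R and IGF2R overlapped, as did IGF2R and IGFBP2 and, lower down, IGFBP7 and IGF1. With DOX the order became IGF2R at 13.0 ± 0.309, IGFBP2 at 8.76 ± 0.745, IGF1R at 6.61 ± 0.281, IGFBP7 at 1.87 ± 0.249 and IGFBP5 at 1.05 ± 0.128 CPM per kb. No neighbours in that order overlapped. Both ligands were low on this scale, IGF1 at 0.336 ± 0.0229 in untreated cells and 0.0438 ± 0.0113 in treated ones, and IGF2 at 0.164 ± 0.0155 in treated ones.

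The makeup of the binding protein RNA shifted from IGFBP5 to IGFBP2. Summed over IGFBP1 to IGFBP7 per length, it was 28.6 ± 0.272 CPM per kb in OMO and 12.8 ± 1.02 in OMO+DOX. IGFBP5 made up 67.6 ± 2.58% of this sum in untreated cells and 8.25 ± 1.01% in treated ones. IGFBP2 made up 22.3 ± 1.62% and 68.4 ± 1.13%, so that the gene in the lead changed in all 4 treated libraries. Each of these shares had p = 0.0286 by a two-sided exact permutation test (adjusted p = 0.0333). IGFBP5 led the sum in untreated cells and its level fell 18.3-fold, and the members were chosen with earlier results of these data known. The gaps in both shares follow from this, and their p values are descriptive only. IGFBP7 went from 1.52 ± 0.247% to 14.6 ± 1.52%, while the share of IGFBP4 overlapped between groups at 6.70 ± 0.533% and 5.83 ± 0.265%. Since the sum fell, the share of IGFBP2 rose by more than its own level. IGFBP1, IGFBP3 and IGFBP6 were each under 2% of the mean sum in both groups.

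**Figure D4:**
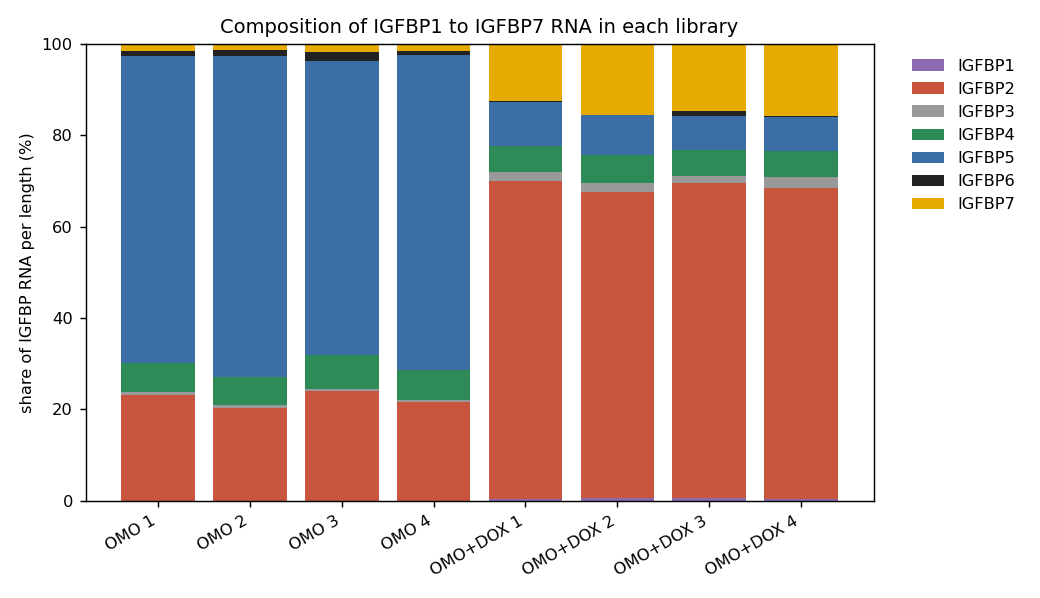
Share of each binding protein gene in the summed RNA of IGFBP1 to IGFBP7 per length, in percent, 1 stacked bar per library. IGFBP5 fills most of each OMO bar (64.3 to 70.3%) and IGFBP2 most of each OMO+DOX bar (67.1 to 69.6%).

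Lists of other genes around the pathway held 155 genes, of which 115 were tested, 50 were higher, 43 lower and 22 did not pass an adjusted p of 0.05 (edgeR's quasi-likelihood test). Their median log2FC was 0.09 and that of all genes tested 0.01. In all genes tested, 38.5% were higher and 38.1% lower, so these counts, and those of most single lists below, lie near the background. Differential expression was called for 5 of the 115, all higher, against 4.38% of all genes higher and 2.75% lower, which is also near the background. Of the 115, 4 genes, CCN3, INSRR, SLC22A18 and SOCS1, passed the filter only through the group in which they were high, so a difference was built into their being tested and their p values carry that limit. Of 7 other secreted members, IGFBPL1 was the only one tested and rose by 0.56 (SE 0.05, adjusted p = 1.16e-06, edgeR's quasi-likelihood test).

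Of 12 proteins related to the binding proteins by an IGFBP domain, 5 were tested, 4 rose and 1 fell, with a median log2FC of 2.04. Over all genes tested, 38.5% were higher and 38.1% lower, and 4.38% were differentially expressed and higher. So few genes describe themselves and not the list. The 3 called differentially expressed belong to the CCN family of matrix proteins. CCN3, tested only through its treated libraries, rose from 0.487 ± 0.108 to 33.8 ± 0.694 CPM, a log2FC of 6.12 (SE 0.10). CCN2, a target of the YAP pathway, went from 4.53 ± 0.303 to 44.1 ± 2.44 CPM, a log2FC of 3.28, and CCN1 from 14.8 ± 1.78 to 61.0 ± 2.48 CPM, a log2FC of 2.04. The edgeR quasi-likelihood adjusted p values were 5.06e-13, 2.73e-12 and 5.03e-10. CCN1 lies only just beyond the limit of 2. With untreated replicate 1 left out its log2FC was 1.95, or 1.96 with the set of genes tested kept, and the call was lost. Among 10 IGFBP proteases and their inhibitors, 5 were tested, 2 rose and 2 fell. ADAM9, a membrane protease that can cleave IGFBP5, rose from 45.9 ± 3.13 to 398 ± 15.7 CPM, a log2FC of 3.11 (SE 0.06, adjusted p = 2.04e-12, edgeR's quasi-likelihood test).

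Downstream of the receptors, the counts are again to be read against 38.5% higher and 38.1% lower over all genes. Of 17 tested genes acting next to the receptors, 7 rose and 8 fell. SOCS1, a feedback inhibitor tested only through its treated libraries, was 0.449 CPM in OMO and 1.28 in OMO+DOX, a log2FC of 1.51 (SE 0.18, adjusted p = 1.01e-05, edgeR's quasi-likelihood test). All 28 genes of the PI3K, AKT and MTOR list were tested, 11 rose, 11 fell and 6 did not pass, close to the background in each direction. In that list DEPTOR, an inhibitor of MTOR, fell from 72.1 ± 2.42 to 20.5 ± 0.384 CPM, a log2FC of -1.82 (adjusted p = 1.28e-11, edgeR's quasi-likelihood test). In the RAS and MAPK list 11 of 19 rose and 6 fell, with a median log2FC of 0.32. DUSP6, the phosphatase that switches off ERK and is itself induced by it, went from 9.0 ± 1.18 to 42.9 ± 3.06 CPM, a log2FC of 2.26 (adjusted p = 8.12e-10, edgeR's quasi-likelihood test).

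IGF2R works with the machinery that sorts lysosomal enzymes, and there 5 of 13 genes rose, 4 fell and 4 did not pass, near the 38.5% and 38.1% of all genes, with a median log2FC of 0.09. GGA3, an adaptor that carries this receptor out of the Golgi, rose from 73.7 ± 1.24 to 147 ± 8.88 CPM, a log2FC of 1.0 (SE 0.05, adjusted p = 5.92e-09, edgeR's quasi-likelihood test). Around IGF2 and H19 on chromosome 11, 21 neighbours were listed and 8 tested, of which 2 rose and 3 fell. SLC22A18, an imprinted transporter gene of that cluster tested only through its treated libraries, rose by 1.51 (SE 0.16, adjusted p = 3.06e-06, edgeR's quasi-likelihood test) at 0.754 and 2.15 CPM.

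Among 12 tested imprinted genes elsewhere in the genome, 4 rose and 5 fell, against 38.5% and 38.1% of all genes, and NNAT, the neuronal gene neuronatin, fell from 531 ± 72.1 to 174 ± 17.9 CPM, a log2FC of -1.61 (adjusted p = 3.81e-08, edgeR's quasi-likelihood test). Of 6 tested regulators of IGF2 RNA or of its locus, 1 rose and 3 fell. HMGA2, a chromatin protein that acts on IGF2 and IGF2BP2, fell by 0.79 (SE 0.06, adjusted p = 2.11e-07, edgeR's quasi-likelihood test). All 3 tested genes of the growth hormone axis rose, JAK2, the kinase of the growth hormone receptor, by 1.95 (SE 0.12, adjusted p = 2.53e-08, edgeR's quasi-likelihood test).

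**Figure D5:**
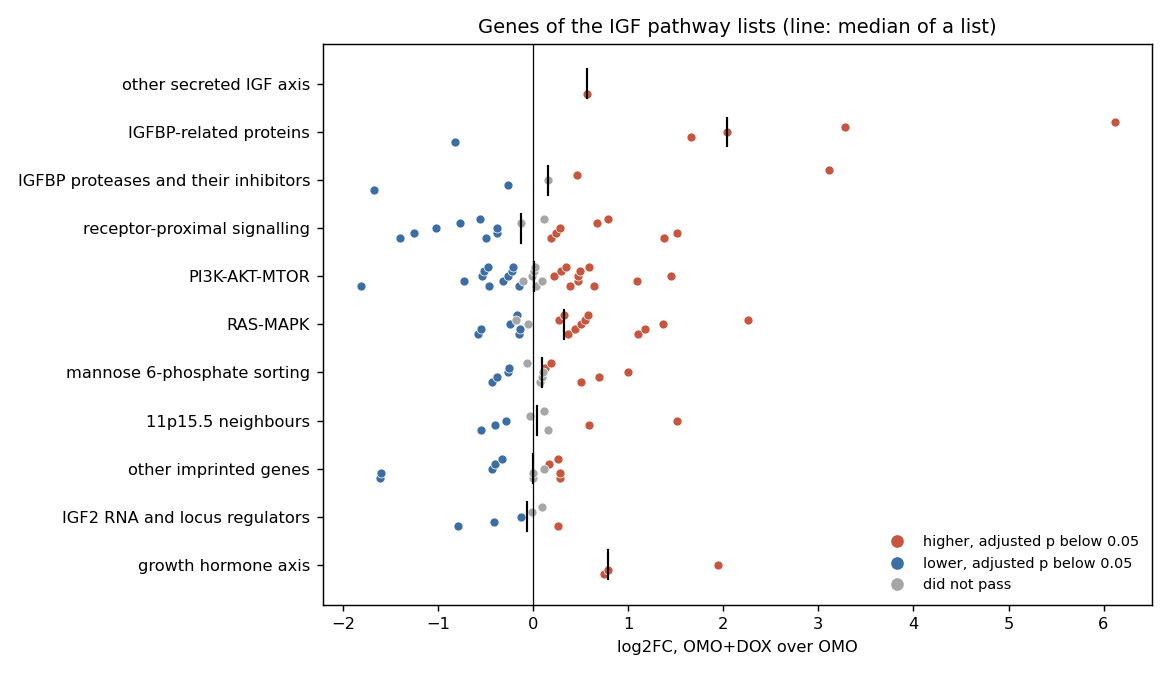
The log2FC of each tested gene in the lists around the IGF pathway, OMO+DOX over OMO, 1 row per list, coloured by whether the gene was higher, lower or did not pass an adjusted p of 0.05; the black line is the median of a list. Most medians lie close to 0, with 2.04 for the IGFBP-related proteins over 5 genes.

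Markers of other cell types moved as well. The fibroblast list summed to between 38.2 and 40.7 CPM in OMO and between 61.5 and 75.4 in OMO+DOX, with 3 of its 4 tested genes higher. Most of the rise was PDGFRB, from 13.5 to 40.4 CPM, while COL1A2, LUM and THY1 averaged below 0.3 CPM in both groups and DCN 0.601 and 0.0117 CPM. The sum of the neuronal list fell from between 585 and 599 CPM in OMO to between 394 and 418 in OMO+DOX. Its genes did not all fall: of 6 tested, 4 were lower and 2 higher, and 1 was differentially expressed, higher. Over all genes tested, 38.5% were higher and 38.1% lower. Astroglial markers summed to at most 0.816 CPM and microglial markers to at most 1.32 in any library, and hepatocyte markers, whose tissue is a main source of IGF1 and IGF binding proteins, to between 3.19 and 4.12 CPM in OMO and between 5.80 and 7.07 with DOX. The part of these markers in the IGF results was not tested.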

How the data were processed

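D283-OMO RNA was prepared with a stranded kit that selects mRNA, and the methods describe the replicates as independent. Reads were trimmed (Trim Galore) and aligned to GRCh38 with GENCODE 32 (STAR) by the authors, who deposited RSEM expected counts per gene, 1 file a library, without normalization. Counting strand was not given in the sources used here.

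Symbols, positions and exon lengths came from GENCODE 29. Expected counts were rounded. Genes above 1 CPM (counts per library size) in 4 libraries or more were tested with edgeR 4.0.16 (TMM, quasi-likelihood test, Benjamini-Hochberg over 15222 genes), which recovered 199 of 200 genes changed in simulated data, all set to a log2FC of 3 in size. In the simulation untreated levels below 1 CPM were raised to 1 and only those 200 genes changed. It therefore does not cover genes near 0 in untreated cells or a change in most genes. Single values had two-sided exact permutation tests. Levels between genes were divided by the union of exons. The members and lists were chosen with earlier results of these data known. Named list genes were those differentially expressed, at most 4 a list, or otherwise the 1 with the largest absolute log2FC that passed. Alternatives were other filters, scalings (RLE, library size), DESeq2 1.42.0, a likelihood ratio test, a replicate block, other lengths and leaving out each library. Replicate numbers were not used as pairs in the main fit, and pairing by number was not excluded. No file or column was left out, and the floor of 3 counts, 0.0581 to 0.0748 CPM, covers counting error only.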

Additional observations from a re-analysis of the deposited data

Results flagged for a closer look

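Of 59 groups of 4 libraries examined with Dixon's test, 1 held a value far from the others, where chance alone gives about 3.0. This was CCN3 in OMO+DOX, whose replicate 3 was 34.8 CPM while the other treated libraries were 33.3, 33.5 and 33.5 CPM. Against 0.487 CPM in untreated cells the spread is small.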

How the results depend on the processing

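The log2FC of the IGF genes kept its direction in all 179 alternative values and its side of an adjusted p of 0.05 in 178, the exception being IGF1R with library size only. The stricter call of IGFBP7 was lost without untreated replicate 2, where its log2FC was 1.997. The filter on low counts decides how many genes can be called. With no filter 2097 genes were differentially expressed, 1328 higher and 769 lower; with a level above 1 CPM asked of 5 libraries or more 562, 313 higher and 249 lower; with edgeR's filterByExpr 1649, 1043 of them higher. With the filter on 5 libraries IGF1, IGF2 and IGFBP7 are no longer tested, which leaves 1 differentially expressed IGF gene, 0 higher and 1 lower, and 2 higher at an adjusted p below 0.05. Of the pathway lists, 8 genes were differentially expressed with no filter, 1 of them lower, and 1 was lower with filterByExpr.

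Leaving out each library in turn and filtering again gave 705 to 922 differentially expressed genes, 314 to 662 higher and 256 to 411 lower. Among the IGF genes it gave 2 to 3, with 0 to 2 higher and 1 to 2 lower, and 2 to 4 higher and 3 to 4 lower at an adjusted p below 0.05. IGF2 and IGFBP7 drop out without any 1 of the treated libraries and IGF1 without any 1 of the untreated, since each then passes 1 CPM in only 3. With the genes tested kept, an alternative chosen after seeing the data, the ranges were 1072 to 1091 genes in all and 4 to 4 IGF genes. The pathway lists gave 4 to 6 differentially expressed genes, all higher, either way. At an adjusted p below 0.05 they gave 45 to 53 genes higher and 37 to 43 lower when filtered again, and 46 to 55 and 41 to 43 with the genes kept.

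With the longest transcript as length, the IGFBP2 share in OMO+DOX was 65.6% and the IGF2R to IGF1R ratio 1.07 in OMO and 2.20 in OMO+DOX, so which receptor leads in untreated cells depends on the length used. Library size only moved the median of all genes by 0.13. Same-numbered libraries deviated together with r from -0.176 to 0.241, with a mean of 0.0913 against -0.0330 for other pairs. No clear pairing by number was seen, but 4 pairs are too few to exclude it. A replicate block called 1085 genes against 1084. IGF1 with DOX, IGF2, IGFBP3, IGFBP7 and H19 are limited by few counts.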
